A study of Mus musculus with 18 samples.

Results

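The respiratory chain of mouse embryonic stem (ES) cells was followed through the mRNAs of 100 protein-coding genes, 12 encoded in the mitochondrial genome and 88 in the nucleus. They were chosen by symbol (mt-, Nduf, Sdha to Sdhd, Uqcr, Cox4 to Cox8 and Atp5) and by a mean of at least 1 CPM (counts scaled to a common library total of gene reads) over 18 libraries, and this rule uses no fold change. Of 106 protein-coding genes with such symbols, 6 fell under that level, and the count table held 53801 genes in all. The 88 nuclear members comprised 36 subunits of complex I, 8 complex I assembly factors, 4 subunits of complex II, 8 of complex III, 15 of complex IV and 17 of complex V. The 12 mitochondrially encoded members comprised 7 subunits of complex I, 1 of complex III, 3 of complex IV and 1 of complex V.

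Polyadenylated RNA was sequenced from the parental E14 ES cell line (WT) and from iEZR_CA, E14 cells that express a phosphomimetic, constitutively active ezrin under doxycycline control. Ezrin ties the plasma membrane to the actin cortex. Each line was sampled on gelatin in 2i+LIF, the medium that holds cells in naive pluripotency (ESC, 0 h), then in N2B27 for 24 h (T24) or 48 h (T48), a medium in which they leave that state, with 3 libraries in each of the 6 groups. Doxycycline was given to iEZR_CA alone, from about 16 h before the transfer, and the labels do not state whether it stayed in the medium. The drug, the transgene and other features of the engineered line therefore cannot be told apart in any comparison of the lines, and doxycycline is known to inhibit the ribosomes of mitochondria. The study describes the 3 libraries of a group as biological replicates, and the labels, which name them by plate well only, do not tie them to cultures or days, so p-values measure the spread between these libraries. Since RNA was taken from whole cultures, fewer cells of a type and less RNA per cell cannot be told apart.

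The respiratory chain passes electrons from NADH (complex I) and succinate (complex II) through complex III to complex IV, which reduces oxygen, and complexes I, III and IV pump the protons that drive ATP synthesis by complex V. Complex II is wholly nuclear, while the other complexes combine subunits from both genomes. Mitochondrial genes are copied from both strands of a small circular genome as long transcripts that are cut at tRNAs and given short poly(A) tails, whereas nuclear subunits are transcribed gene by gene, translated in the cytosol and imported. Naive mouse ES cells are known to respire more than the primed cells that follow them.

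Gene counts ran from 10940752 to 33276622 per library, and the summed counts of the 12 mitochondrial mRNAs from 38342 to 222390. Ezr, which the transgene adds to, was read at 577, 569.8 and 553 CPM in WT ESC and 1209.8, 1174 and 1183 CPM in iEZR_CA ESC, and the log2 difference between the lines was 1.07 (SE 0.025, edgeR adjusted p = 3.4e-45) in ESC, 1.43 at T24 and 0.69 at T48. Summed pluripotency markers (Pou5f1, Sox2, Sall4, Nanog) stood at 2887 to 2953 CPM in WT ESC, 1771 to 1778 at T24 and 1071 to 1107 at T48. In iEZR_CA they stood at 2357 to 2400 CPM in ESC, 1830 to 1851 at T24 and 1066 to 1084 at T48. Summed markers of primitive endoderm (6 genes), fibroblasts or feeders (4) and trophoblast (3) reached at most 37.8, 18.8 and 12.5 CPM, the first and the last in iEZR_CA and the fibroblast list in WT T48, and neural markers (3) ran from 43.3 to 128 CPM. No marker was at 0 in all 3 libraries of a group, and the part of other cell types in the results was not tested. The share of reads discarded for low alignment quality was 0.519 to 0.612% in WT and 0.889 to 1.02% in iEZR_CA, without overlap, and its part in any difference between the lines was not tested. Fold changes below are on the log2 scale from edgeR's quasi-likelihood test, relative to the bulk of 18469 genes tested, and a gene was called at a Benjamini-Hochberg adjusted p under 0.05. Against ERCC spike-in RNA in place of the bulk, the median of all genes stood 0.13 above ESC at T24 and 0.27 at T48 in WT, and 0.14 and 0.26 in iEZR_CA, so a fall below describes a smaller share of the mRNA pool, and 29 called falls of named genes after ESC turned positive on the spike-in scale.

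Several mitochondrial genes have near-identical copies in the nuclear genome, and HTSeq drops reads that align to both places equally well, so the sequences are shown before any level is read. A stretch of chromosome 1 (GRCm38, chr1:24611535-24616197, minus strand) holds the whole of mt-Co2, mt-Atp6, mt-Co3, mt-Nd3 and mt-Nd4l up to their last bases, the first 876 bases of mt-Nd4 and the last 492 bases of mt-Co1. The copies of mt-Co2 (Gm28661, 681 bases), mt-Atp6 (Gm10925, 678), mt-Co3 (Gm28437, 783), mt-Nd4l (Gm10222, 294) and of mt-Nd4 (Gm28439) did not differ from the genes at any base, and that of mt-Nd3 (Gm28438, 345) differed at 1, T3C, counted from the start of mt-Nd3. The copy of the mt-Co1 end (Gm29216) differed at 6 bases, all between positions 1056 and 1066, and was identical from position 1067 on over 479 bases, or 31% of the gene, while a pseudogene of chromosome 2 (Gm13340) covered all 1545 bases of mt-Co1 with 37 differences. The starts of mt-Nd3 (chrM:9459-9518, plus strand) and of its copy, the start of mt-Co2 (chrM:7013-7072), which Gm28661 shares letter for letter, and the stretch of mt-Co1 that holds all differences from Gm29216 (chrM:6381-6500, bases 1054 to 1173) are given 5′ to 3′ with differing bases in capitals.
mt-Nd3: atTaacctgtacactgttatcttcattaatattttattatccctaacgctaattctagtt
Gm28438: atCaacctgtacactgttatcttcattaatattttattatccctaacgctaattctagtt
mt-Co2: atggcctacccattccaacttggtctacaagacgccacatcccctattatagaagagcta
mt-Co1: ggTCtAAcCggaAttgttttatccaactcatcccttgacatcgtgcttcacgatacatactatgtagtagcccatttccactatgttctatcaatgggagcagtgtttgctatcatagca
Gm29216: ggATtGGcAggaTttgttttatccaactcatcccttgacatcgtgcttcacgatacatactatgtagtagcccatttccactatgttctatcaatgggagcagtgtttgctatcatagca

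mt-Co1, the catalytic subunit of complex IV, was the most abundant member at 2373 ± 145 CPM per kb in WT ESC (mean ± SD, n = 3), followed by mt-Nd1 (1278 ± 45.1) and mt-Cytb (1028 ± 43.4). mt-Co2 and mt-Co3, which lie downstream of mt-Co1 on the same strand, were listed at 121 ± 1.91 and 101 ± 0.427 CPM per kb, mt-Atp6 at 69.2 ± 1.997, mt-Nd3 at 28.5 ± 1.28 and mt-Nd4l at 12.4 ± 1.64. These 5 genes, all held whole by chromosome 1, were the 5 lowest of the 12, while mt-Nd6, the only member read from the opposite strand, was at 289 ± 9.396. The strand setting of the counting is not stated, so reads of transcripts from the other strand may count toward mt-Nd6. Their part in its level and in its changes below was not tested. Levels of genes copied whole describe the reads that could be placed, not the mRNA, and only their changes between groups are compared below. For scale, the median nuclear member stood at 46.9 ± 1.47 CPM per kb in WT ESC, and the highest, Atp5b, the catalytic beta subunit of complex V, at 668 ± 9.96.

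**Figure D1:**
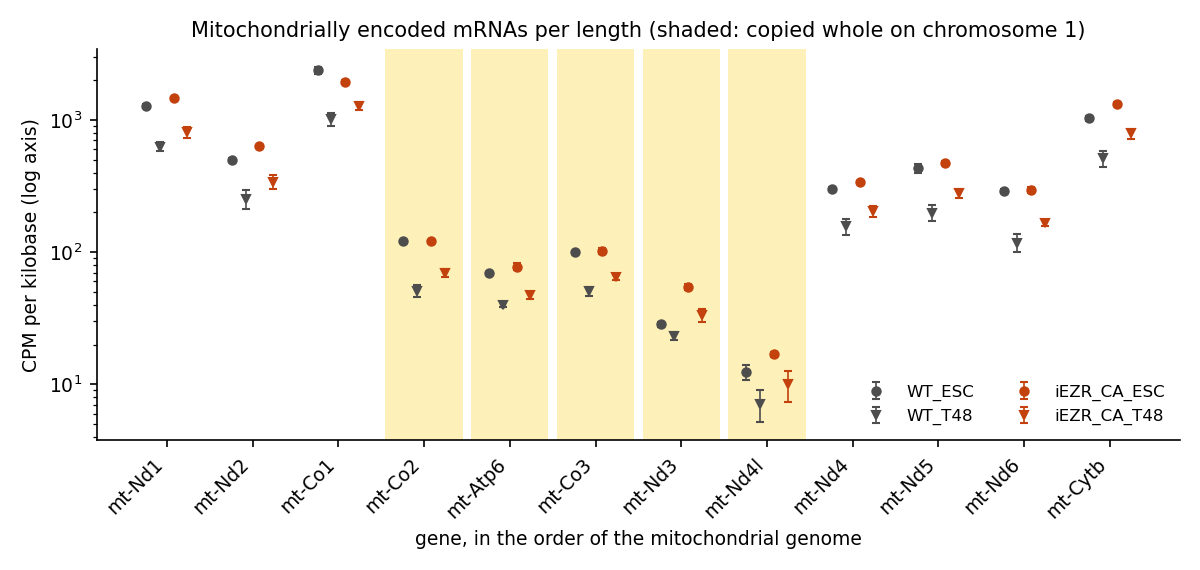
Level of the 12 mitochondrially encoded members in CPM per kb of exon (log axis), in the order of the genome, for WT and iEZR_CA ESC and T48 (points and bars, mean ± SD of 3 libraries). Shaded genes are held whole by chromosome 1 and lie below 296 CPM per kb, the median of the 12 in WT ESC, in every group.

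Mitochondrial mRNA made up a falling share of the reads as the cells left naive pluripotency, in both lines, and a larger share in iEZR_CA than in WT at T24 and T48. In WT the summed CPM of the 12 genes was 8524, 8212 and 7742 in ESC, 6206, 5744 and 5555 at T24 and 3566, 3471 and 4272 at T48. In iEZR_CA it was 8093, 8515 and 8289 in ESC, 7229, 6669.7 and 7459.9 at T24 and 4589, 5091 and 5415 at T48. The lines overlapped in ESC, and at T24 and T48 the lowest iEZR_CA value exceeded the highest of WT. The 88 nuclear members summed to 12272 ± 348 CPM in WT ESC, 10245 ± 68.4 at T24 and 10165 ± 175 at T48, and to 12416 ± 170.1, 11017 ± 90.99 and 10110.2 ± 112 in iEZR_CA (n = 3 each), so their sum fell less and differed between the lines without overlap at T24 alone.

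**Figure D2:**
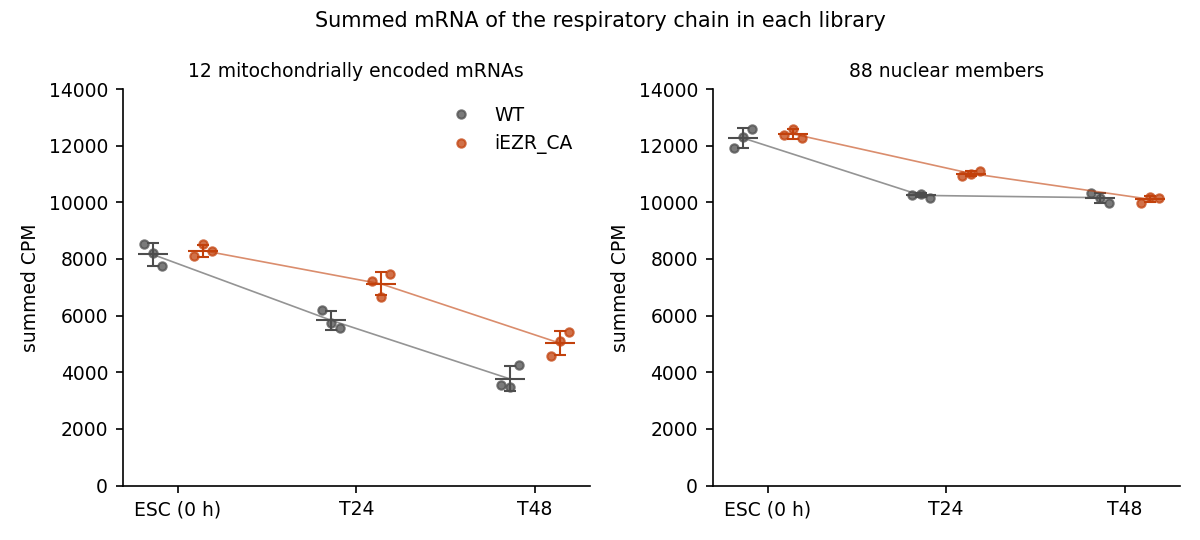
Summed CPM of the 12 mitochondrially encoded and the 88 nuclear members in each library (points) by line and time, with mean ± SD of 3 libraries. Mitochondrial sums fall at each time in both lines and lie higher in iEZR_CA at T24 and T48; nuclear sums of WT stay near 10245 and 10165 CPM at T24 and T48, and those of iEZR_CA go from 11017 to 10110.2.

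The ratio of mitochondrial to nuclear members within a library does not depend on scaling. It was 0.716, 0.667 and 0.614 mitochondrial reads per nuclear read in WT ESC, 0.605, 0.558 and 0.546 at T24 and 0.345, 0.342 and 0.428 at T48. For iEZR_CA the ratio was 0.653, 0.676 and 0.676 in ESC, 0.661, 0.607 and 0.671 at T24 and 0.4598, 0.5001 and 0.532 at T48. At T48 all libraries of both lines lay below all of ESC, and the lines did not overlap at T24 or T48, where the third WT T48 library stood closest to iEZR_CA. On the log2 scale the mean ratio of iEZR_CA minus that of WT was 0.01 in ESC, 0.18 at T24 and 0.43 at T48, beside a pooled SD between replicates of 0.108. Without mt-Co1, which gave the most reads of the 12, these differences were 0.22, 0.37 and 0.48, and the lines then did not overlap at any time, ESC included. With 3 libraries against 3, an exact permutation test of such a ratio cannot give a two-sided p under 0.1, so the overlap is described and no p is given.

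**Figure D3:**
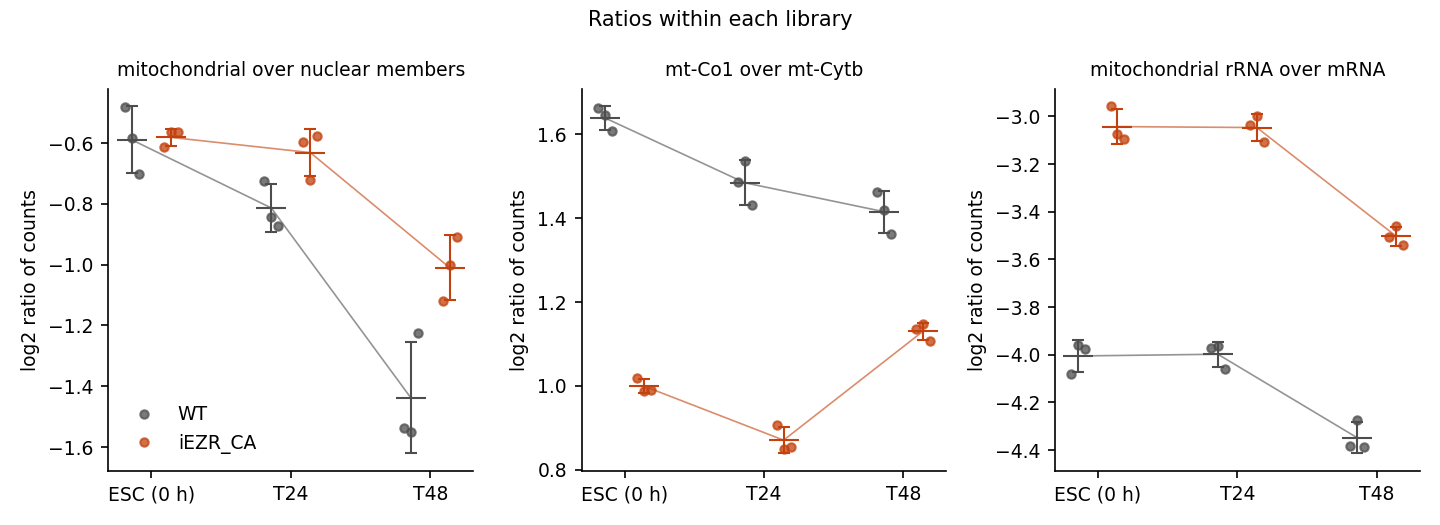
Within-library log2 ratios by line and time (points, libraries; bars, mean ± SD of 3): summed mitochondrial over nuclear members, mt-Co1 over mt-Cytb, and mitochondrial rRNA over mitochondrial mRNA. The first parts the lines at T24 and T48, the other two at all 3 times, with iEZR_CA lower for mt-Co1 over mt-Cytb and higher for rRNA.

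The 12 mitochondrial genes were compared with ESC gene by gene. By T24 in WT, 10 of 12 had fallen and 0 had risen (median -0.40), where 33.6% of all genes tested were lower and 31.8% higher. In iEZR_CA 5 of 12 fell by T24 and 0 rose (median -0.15), beside 28.9% of genes lower and 27.1% higher, and on the spike-in scale this median was 0.00 with no gene called. Without the second ESC or the second T24 library of iEZR_CA, 3 were called. By T48 all 12 genes had fallen in both lines, with a median of -1.01 in WT, where 37.4% of genes were lower and 37.1% higher, and of -0.75 in iEZR_CA, where 35.0% were lower and 35.2% higher; 28.0% of all genes were lower in both lines. On the spike-in scale 11 and 12 of 12 were still lower at T48 in WT and iEZR_CA, at medians of -0.74 and -0.48. The median of the mitochondrial genes fell below that of the nuclear members by 0.82 in WT T48 and by 0.48 in iEZR_CA T48; without the third WT T48 library the first value was -0.93. The 7 genes not held whole by chromosome 1 had medians of -1.02 and -0.76 at T48, and the other 5 of -0.80 and -0.73.

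Single genes show the size of these falls. mt-Nd1, a core membrane subunit of complex I, was at 1269, 1217 and 1184 CPM in WT ESC and 585, 567 and 656 at T48, a log2 fold change of -1.02 (SE 0.080, edgeR adjusted p = 4.7e-08). In iEZR_CA it went from 1393, 1416 and 1379.7 to 685, 796 and 831 CPM, by -0.86 (SE 0.079, edgeR adjusted p = 3.3e-07), again without overlap of the times. mt-Nd6 changed by -1.26 in WT and -0.84 in iEZR_CA, and mt-Nd5, the largest mitochondrial subunit, by -1.11 and -0.76. mt-Nd3, another membrane subunit, changed least in WT, from 9.497, 9.86 and 10.4 CPM to 7.72, 8.78 and 7.86, by -0.32 (SE 0.098, edgeR adjusted p = 0.003). mt-Nd2 fell by T48 by 0.97 in WT and 0.90 in iEZR_CA, mt-Nd4 by 0.94 and 0.74, and mt-Nd4l, at 18 to 124 counts the thinnest of the 12, by 0.71 and 0.80. mt-Atp6, the proton channel subunit of complex V, fell by 0.80 and 0.73, and mt-Co2 and mt-Co3 of complex IV by 1.25 and 1.02 in WT and by 0.82 and 0.68 in iEZR_CA.

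Between the lines, more mitochondrial mRNAs were called at T24 and T48 than in ESC. In ESC 5 of 12 were higher and 1 lower in iEZR_CA (median 0.17), with 26.4% of all genes higher and 28.1% lower, and 4 higher and 0 lower on the spike-in scale. At T24 11 of 12 were higher and 0 lower (median 0.40; 30.8% and 30.1% of all genes), and at T48 again 11 and 0 (median 0.40; 31.0% and 30.1%), with 11 and 10 higher on the spike-in scale. At all 3 times 4 of 12 were called higher, mt-Nd2, mt-Nd3, mt-Cytb and mt-Atp6, and 0 lower, beside 12.2% and 11.1% of all genes, although in ESC the call of mt-Atp6 was lost without the second iEZR_CA library (0.12) and that of mt-Nd4l without the third WT library (0.35). mt-Cytb, the mitochondrial subunit of complex III, was at 1222, 1183 and 1123 CPM in WT ESC and 1444, 1556 and 1518 in iEZR_CA ESC, and at 542, 537 and 683 and 829, 905 and 980.3 at T48. No library of the lines overlapped at either time, and the differences were 0.36 (SE 0.088, edgeR adjusted p = 0.0037) and 0.62 (SE 0.090, edgeR adjusted p = 4.2e-05). mt-Nd3 differed by 0.93 (SE 0.084, edgeR adjusted p = 2.2e-15) in ESC, from 9.497, 9.86 and 10.4 CPM in WT to 19.97, 18.6 and 18.2 in iEZR_CA, and by 0.69 at T24 and 0.54 at T48. Of mt-Nd3 the nuclear copy Gm28438 differs at the third base alone, so this value rests on the reads that could be placed.

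mt-Co1 went its own way. It was the one mitochondrial mRNA called lower in iEZR_CA ESC, at 2924, 3088 and 3017 CPM against 3869, 3702 and 3426 in WT, a difference of -0.28 (SE 0.080, edgeR adjusted p = 0.0087). At T24 the lines overlapped, at 2621, 2475 and 2371 CPM in WT and 2556, 2303 and 2593 in iEZR_CA, and the difference was 0.00 (SE 0.080, edgeR adjusted p = 0.98). At T48 iEZR_CA was higher in every library, at 1820.5, 2005 and 2113 CPM against 1495, 1438 and 1758, by 0.34 (SE 0.081, edgeR adjusted p = 0.0025). Relative to mt-Cytb in the same library, mt-Co1 stood at a log2 ratio of 1.64 ± 0.028, 1.48 ± 0.053 and 1.42 ± 0.050 in WT ESC, T24 and T48 and at 1.0 ± 0.016, 0.87 ± 0.031 and 1.13 ± 0.020 in iEZR_CA, with no overlap of the lines at any time. Reads of the chromosome 2 pseudogene Gm13340, which carries mt-Co1 with differences along its length, were few, at 8.26, 7.31 and 7.47 CPM in WT ESC and 6.55, 7.06 and 6.498 in iEZR_CA ESC. Reads that fit mt-Co1 and its chromosome 1 copy Gm29216 equally well were dropped and count for neither gene. Gm29216 is identical over the last 31% of mt-Co1, and no near-identical annotated copy of mt-Cytb was found. The part of such lost reads in these mt-Co1 values was not tested.

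Whether the change with time differed between the lines was tested as an interaction, on controls and times shared with the comparisons above. At T24 4 mitochondrial genes fell less in iEZR_CA and 0 fell more (mt-Nd6, mt-Co2, mt-Co3 and mt-Atp6, by 0.40, 0.29, 0.21 and 0.17), beside 21.5% of all genes with a positive and 16.9% with a negative interaction, and 0 and 0 on the spike-in scale. At T48 5 were positive and 1 negative, beside 25.7% and 20.0%, and 1 and 0 on the spike-in scale. mt-Co1 was the largest, at 0.62 (SE 0.11, edgeR adjusted p = 4.9e-04), followed by mt-Co2 at 0.43 (SE 0.073, edgeR adjusted p = 4.2e-06), mt-Nd6 at 0.42 (SE 0.13, edgeR adjusted p = 0.015), mt-Nd5 at 0.35 (SE 0.13, edgeR adjusted p = 0.047) and mt-Co3 at 0.34 (SE 0.064, edgeR adjusted p = 1.0e-05). All 3 mitochondrial subunits of complex IV were among them, while mt-Nd3 went the other way, at -0.40 (SE 0.13, edgeR adjusted p = 0.0084). Of these genes, mt-Co2, mt-Co3 and mt-Nd3 are held whole by chromosome 1 and mt-Co1 in part. Of the 5 genes held whole, 3 were positive and 0 negative at T24, and 2 were positive and 1 negative at T48. Of the other 7, 1 was positive at T24 and 3 at T48, and 0 were negative at either time. The part of reads lost to the copies was not tested. The mt-Nd5 call was lost on leaving out any of 9 single libraries (0.274 to 0.363), those of mt-Nd6 and mt-Nd3 without the first WT T48 (0.372) and the first iEZR_CA T48 library (-0.303), and that of mt-Atp6 at T24 without any of 8 (0.132 to 0.174).

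The 2 mitochondrial rRNAs, which lie ahead of all mRNAs on the heavy strand and outside the member rule, differed between the lines by more than any mitochondrial mRNA, apart from mt-Rnr1 beside mt-Nd3 in ESC. mt-Rnr2, the large subunit rRNA, was at 438, 454 and 423 CPM in WT ESC and 903, 877 and 851 in iEZR_CA ESC, a difference of 1.0 (SE 0.074, edgeR adjusted p = 5.5e-08), and at 119, 122 and 144 and 322, 365 and 371 at T48, a difference of 1.45 (SE 0.081, edgeR adjusted p = 1.8e-09). mt-Rnr1, the small subunit rRNA, differed by 0.91, 0.98 and 0.70 in ESC, T24 and T48. Neither rRNA overlapped between the lines at any of these times. The log2 ratio of mitochondrial rRNA to mRNA was -4.01 ± 0.067 in WT ESC and -3.04 ± 0.074 in iEZR_CA ESC (n = 3). Since the libraries were made from poly(A) RNA, these values follow the rRNA that was captured, not all of it.

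Most nuclear members moved less, and in both directions. Relative to the bulk of genes, 67 of 88 were lower and 5 higher at T24 in WT (median -0.22), and 55 lower and 9 higher at T48 (median -0.19), where 33.6% and 37.4% of all genes were lower. For T24 in WT the median SE was 0.045 for nuclear members and 0.088 for all genes tested. Small changes were therefore called more readily in nuclear members, and the shares of all genes are not matched for level. In iEZR_CA 53 were lower and 5 higher at T24 (median -0.14) and 65 lower and 7 higher at T48 (median -0.27), beside 28.9% and 35.0% of all genes lower. On the spike-in scale the WT counts were 16 lower and 4 higher at T24 and 17 lower and 21 higher at T48. Those of iEZR_CA were 4 lower and 3 higher at T24 and 11 and 10 at T48. The medians in this order were -0.09, 0.08, 0.01 and -0.01. The direction of the nuclear members as a set therefore rests on the scale at T48 in both lines and at T24 in iEZR_CA. In WT at T24 most called nuclear members were lower on both scales. The direction of the mitochondrial members at T48 does not rest on the scale. Of all genes tested, 28.0% were lower at T48 in both lines and 27.1% higher in both, 2 comparisons with no library in common, and of the 88 nuclear members 52 were lower in both and 4 higher: Ndufa7, Ndufaf3, Atp5e and Atp5s, of which Ndufa7, an accessory subunit of complex I, is named after its values were seen and Atp5s was not called in WT without the third T48 library (0.30). Between the lines, 33 were higher and 16 lower in iEZR_CA in ESC (median 0.08; 6 and 2 on the spike-in scale), 49 and 6 at T24 (median 0.12; 29 and 1) and 23 and 24 at T48 (median -0.02; 11 and 2 on the spike-in scale, median 0.03). The shares of all genes that were higher and lower there were 26.4% and 28.1% in ESC, 30.8% and 30.1% at T24 and 31.0% and 30.1% at T48, and the shares of the nuclear members were near these at T48. The interaction was positive for 31 and negative for 1 at T24 (median 0.10) and positive for 15 and negative for 19 at T48 (median -0.05), beside 21.5% of all genes positive and 16.9% negative at T24 and 25.7% and 20.0% at T48, where the positive share of the nuclear members was below that of all genes and the negative share close to it. On the spike-in scale 2 were positive and 0 negative at T24, and 2 and 2 at T48.

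**Figure D4:**
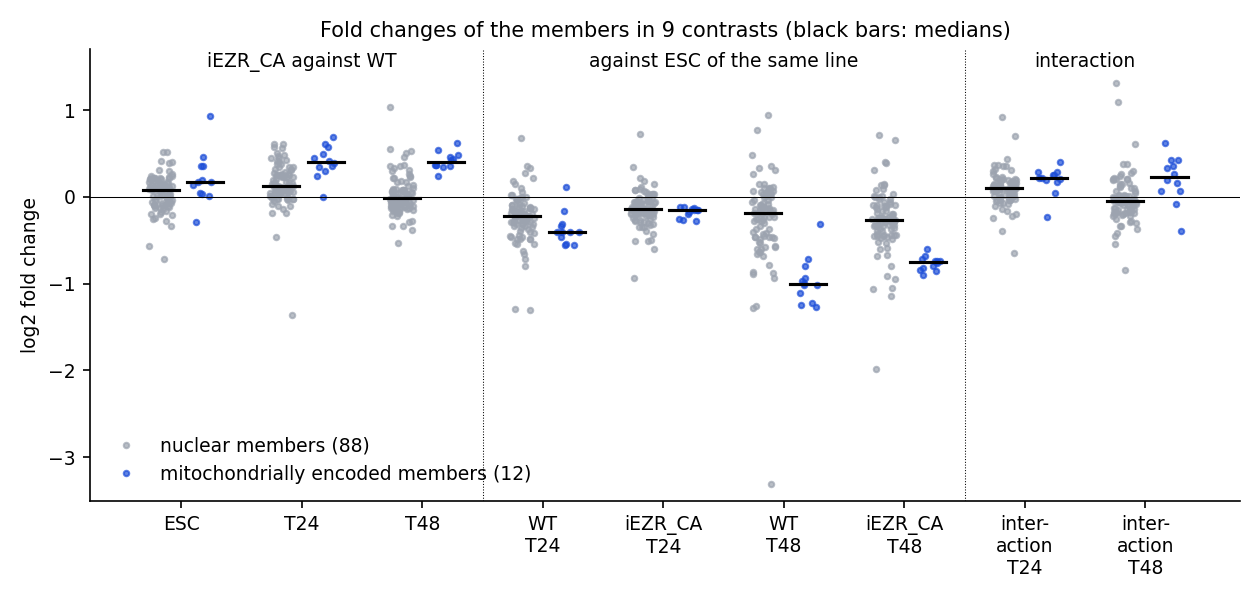
Log2 fold changes of the 12 mitochondrially encoded and 88 nuclear members in the 9 comparisons (points, genes; bars, medians). The mitochondrial medians of -1.01 and -0.75 at T48 lie below the nuclear ones of -0.19 and -0.27, and at T48 between the lines the mitochondrial median of 0.40 lies above the nuclear one of -0.02.

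Complex I, the entry point of electrons from NADH, had 21 of 36 nuclear subunits lower and 3 higher at T48 in WT (median -0.14; 0.13 on the spike-in scale) and 25 lower and 2 higher in iEZR_CA (median -0.25; 0.01), beside 37.4% and 35.0% of all genes lower. On the spike-in scale 4 were lower and 9 higher in WT, and 3 and 3 in iEZR_CA. Between the lines 19 were higher and 2 lower in iEZR_CA at T24, and 9 and 10 at T48, where all genes stood at 30.8% and 30.1% and then 31.0% and 30.1%; on the spike-in scale 9 and 0 and then 3 and 0 were called. Ndufs1, which carries iron-sulfur clusters, was at 171, 179 and 177 CPM in WT ESC and 160.3, 157 and 152 in iEZR_CA ESC, a difference of -0.17 (SE 0.030, edgeR adjusted p = 1.8e-06), and the lines did not overlap. By T48 it was at 160.1, 168 and 159 and 165, 167 and 164 CPM, with an interaction of 0.20 (SE 0.042, edgeR adjusted p = 5.3e-05). Ndufv1, which binds NADH, fell by 0.27 in WT and 0.17 in iEZR_CA by T48 and stood at -0.01 between the lines in ESC, which was not called, and 0.10 at T48, which was. Ndufb7, an accessory subunit, had the largest positive difference of any nuclear member between the lines in ESC and T24, at 68.4, 70.4 and 76.4 CPM in WT ESC and 105, 105 and 98.5 in iEZR_CA ESC, or 0.52 (SE 0.040, edgeR adjusted p = 3.2e-18), and 0.61 (SE 0.042, edgeR adjusted p = 8.7e-21) at T24. It lies on chromosome 8, where the median of 958 genes tested was itself 0.18, 0.21 and 0.18 higher in iEZR_CA in ESC, T24 and T48, and the part of that shift in its value was not tested. Ndufv3, an accessory subunit beside Ndufv1, was lower in iEZR_CA ESC, at 50.6, 49.5 and 51.4 CPM against 61.7, 61.2 and 67.96 in WT, a difference of -0.34 (SE 0.047, edgeR adjusted p = 4.2e-09), overlapped at T24 and was lower again at T48 (-0.30). Ndufs7, which carries the last iron-sulfur cluster, was lower in iEZR_CA T48, at 49.4, 45.7 and 46.2 CPM against 59.5, 59.9 and 59.3, without overlap and with a difference of -0.34 (SE 0.046, edgeR adjusted p = 2.0e-09). Ndufa2, an accessory subunit of the peripheral arm, crossed over: it was at 39.4, 41.2 and 47.1 CPM in WT ESC and 52.3, 53.8 and 52.99 in iEZR_CA ESC, then at 52.04, 54.8 and 55.2 and 47.3, 49.3 and 50.4 at T48, with an interaction of -0.45 (SE 0.069, edgeR adjusted p = 7.4e-08). The 2 subunits nearest the level limit from above, Ndufs5 (mean 1.41 CPM) and Ndufb2 (1.82), rested on 16 to 65 counts a library.

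The assembly factors of complex I help build it and are not part of the finished enzyme. Ndufaf5, a modifier of Ndufs7, was at 20.9, 20.02 and 19.8 CPM in WT ESC, 8.76, 8.72 and 6.46 at T24 and 10.1, 10.4 and 11.1 at T48, with fold changes of -1.29 (SE 0.080, edgeR adjusted p = 3.5e-23) and -0.94 (SE 0.077, edgeR adjusted p = 1.2e-17). In iEZR_CA it was at 21.2, 21.2 and 22.6 CPM in ESC, 10.9, 11.6 and 11.2 at T24 and 10.05, 9.38 and 10.1 at T48, and its largest difference between the lines was at T24, by 0.45 (SE 0.090, edgeR adjusted p = 1.2e-05). Every library of T24 and T48 lay below every ESC library in both lines. Ndufaf7, a methyltransferase that acts on complex I, rose in WT from 18.02, 17.9 and 19.04 CPM in ESC to 36.7, 35.3 and 33.5 at T48 (0.94, SE 0.060, edgeR adjusted p = 7.0e-23). In iEZR_CA it was at 25.3, 28.2 and 24.3 and 27.4, 27.6 and 28.9 CPM (0.09, SE 0.059, edgeR adjusted p = 0.15). The interaction was -0.84 (SE 0.084, edgeR adjusted p = 1.6e-13), and the lines changed places between ESC and T48 without overlap at either time. Ndufaf6 fell at T24 in both lines, by 0.71 and 0.35, and at T48 was at 21.5, 20.3 and 21.3 CPM in WT and 14.7, 14.8 and 14.4 in iEZR_CA, a difference of -0.53 (SE 0.067, edgeR adjusted p = 1.8e-10). Ndufaf1, which builds the membrane arm, was at 23.2, 19.2 and 18.7 CPM in WT T48 and 29.7, 28.7 and 29.4 in iEZR_CA T48, a difference of 0.50 (SE 0.062, edgeR adjusted p = 8.4e-11), with an interaction of 0.38. Ndufaf3, in contrast, was higher than in ESC at both times in both lines, by 0.49 in WT and 0.31 in iEZR_CA at T48, and at T48 it was lower in iEZR_CA than in WT, with a difference of -0.38 (SE 0.071, edgeR adjusted p = 4.8e-06). Ndufaf2 differed by 0.41 in ESC, but 65.6% of its transcript is overlapped by a gene on the opposite strand, and the strand setting of the counting is not stated. Over the 8 factors the median at T48 was 0.08 in WT and 0.05 in iEZR_CA (0.36 and 0.31 on the spike-in scale).

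Complex II, succinate dehydrogenase, is also an enzyme of the citric acid cycle, and its 4 genes behaved differently from each other. Sdhb, the iron-sulfur subunit, was at 132, 128 and 139.6 CPM in WT ESC, 87.2, 86.2 and 85.02 at T24 and 89.4, 89.2 and 88.5 at T48, with a change of -0.63 (SE 0.036, edgeR adjusted p = 4.0e-25) by T24. iEZR_CA libraries stood at 114, 122 and 116 CPM in ESC, 106, 105 and 99.3 at T24 and 93.3, 94.97 and 97.4 at T48, and the interaction was 0.44 (SE 0.050, edgeR adjusted p = 3.6e-11) at T24 and 0.28 (SE 0.050, edgeR adjusted p = 4.5e-06) at T48. iEZR_CA thus lay below WT in ESC (-0.18) and above it at T24 (0.26), without overlap at either time. Sdha, the flavoprotein that oxidises succinate, showed the same order with smaller values, -0.12 in ESC and 0.11 at T24, and an interaction of 0.23 (SE 0.037, edgeR adjusted p = 4.2e-07). Sdhc, a membrane anchor, was higher in iEZR_CA at all times, by 0.20, 0.25 and 0.17, and its change from ESC was 0.03 in WT and -0.01 in iEZR_CA at T48. Sdhd, the other anchor, differed between the lines by -0.02, 0.06 and -0.05, none of which was called.

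Complex III, which passes electrons to cytochrome c, had all 8 nuclear subunits lower at T24 in both lines (medians -0.30 and -0.22; -0.16 and -0.07 on the spike-in scale), and 5 and 7 lower at T48 in WT and iEZR_CA (medians -0.25 and -0.34; 0.01 and -0.08 on the spike-in scale). Of all genes 33.6% and 28.9% were lower at T24 in WT and iEZR_CA and 37.4% and 35.0% at T48, and on the spike-in scale 2 and 2 of the 8 were lower at T24 and 2 and 2 at T48. Uqcrc1, a core subunit, was at 444, 465 and 467 CPM in WT ESC and 332, 343 and 324 at T48 (-0.46, SE 0.026, edgeR adjusted p = 2.3e-25), and its change in iEZR_CA was -0.47. Uqcrfs1, the Rieske iron-sulfur protein, was lower at T24 (-0.12 in WT and -0.21 in iEZR_CA) and stood at 0.04 and 0.01 at T48, neither of them called. Uqcrq, a small subunit, parted the lines in opposite directions, at 146, 154 and 146 CPM in iEZR_CA ESC against 118, 125 and 135 in WT (0.24, SE 0.036, edgeR adjusted p = 1.1e-07) and at 115, 116 and 115 against 133, 132 and 128 at T48 (-0.18, SE 0.037, edgeR adjusted p = 2.9e-05). Its interaction was -0.24 (SE 0.052, edgeR adjusted p = 1.2e-04) at T24, the one negative call among nuclear members at that time, and -0.42 (SE 0.052, edgeR adjusted p = 7.3e-10) at T48.

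Complex IV, cytochrome c oxidase, held the nuclear member with the largest change with time, Cox7a1. Of its 15 nuclear members 13 were lower and 0 higher at T48 in WT and 13 and 1 in iEZR_CA (medians -0.30 and -0.27; -0.04 and -0.01 on the spike-in scale), and 9 were higher and 1 lower in iEZR_CA than in WT at T24. The shares of all genes were 37.4% and 35.0% lower at T48 and 30.8% higher between the lines at T24, and on the spike-in scale 5 and 4 of the 15 were lower at T48 and 8 higher between the lines at T24. Cox7a1, the isoform of subunit VIIa known from heart and skeletal muscle, was at 15.3, 14.3 and 14.1 CPM in WT ESC, 5.86, 5.397 and 6.62 at T24 and 1.15, 1.901 and 1.603 at T48. In iEZR_CA it was at 11.2, 13.1 and 11.2 CPM in ESC, 7.15, 8.34 and 7.84 at T24 and 2.96, 2.87 and 3.28 at T48. The 3 times did not overlap in either line, and by T48 it had changed by -3.30 (SE 0.13, edgeR adjusted p = 1.3e-33) in WT and -1.99 (SE 0.12, edgeR adjusted p = 1.6e-24) in iEZR_CA, the largest falls of any nuclear member in both lines. It was lower in iEZR_CA than in WT in ESC (-0.28, SE 0.087, edgeR adjusted p = 0.0047) and higher at T48 (1.04, SE 0.18, edgeR adjusted p = 9.3e-07), with interactions of 0.70 (SE 0.14, edgeR adjusted p = 3.2e-05) and 1.32 (SE 0.20, edgeR adjusted p = 7.7e-08). Cox7a2, the isoform of most other tissues, was at 92, 101 and 104 CPM in WT ESC and 82.7, 77.2 and 80.7 at T48, a change of -0.30, against -0.29 in iEZR_CA, and lay 0.22, 0.23 and 0.23 higher in iEZR_CA at the 3 times. Cox7a2l, a relative involved in supercomplexes, was lower in iEZR_CA ESC (-0.24) and stood at -0.02 and -0.08, not called, at T24 and T48.

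Cox6b2, the isoform of subunit VIb known from testis, was ordered differently between the lines in ESC and afterwards. It was at 50.3, 50.3 and 53.5 CPM in WT ESC, 44.4, 47.3 and 43.6 at T24 and 21.7, 21.5 and 20.3 at T48. In iEZR_CA it was at 32.97, 35.5 and 35.6 CPM in ESC, 53.5, 57.6 and 60.5 at T24 and 29.3, 31.5 and 30.1 at T48. iEZR_CA lay below WT in ESC and above it at T24 and T48, without overlap at any time, by -0.57 (SE 0.050, edgeR adjusted p = 9.0e-16), 0.35 (SE 0.047, edgeR adjusted p = 2.4e-09) and 0.52 (SE 0.058, edgeR adjusted p = 3.7e-12). It rose at T24 in iEZR_CA by 0.73 (SE 0.050, edgeR adjusted p = 8.7e-21), the largest rise of a nuclear member there, while its change in WT by T48 was -1.28 (SE 0.054, edgeR adjusted p = 2.7e-32). Cox6b1, its general partner, fell in both lines, from 166, 185 and 192 to 98.2, 105 and 97.2 CPM in WT (-0.87) and from 208, 222 and 206 to 106, 113 and 120.0 in iEZR_CA (-0.91). Cox7b2, a relative of subunit VIIb, was scarce, at 3.76, 2.55 and 3.16 CPM in WT T24 and 1.09, 1.27 and 1.34 in iEZR_CA T24, a difference of -1.36 (SE 0.20, edgeR adjusted p = 2.2e-08) on 17 to 122 counts a library. Its difference in ESC (-0.72) was not called without the first iEZR_CA ESC library (-0.543). Cox7b, the general form, was at -0.09, 0.07 and -0.10 between the lines and not called at any time.

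**Figure D5:**
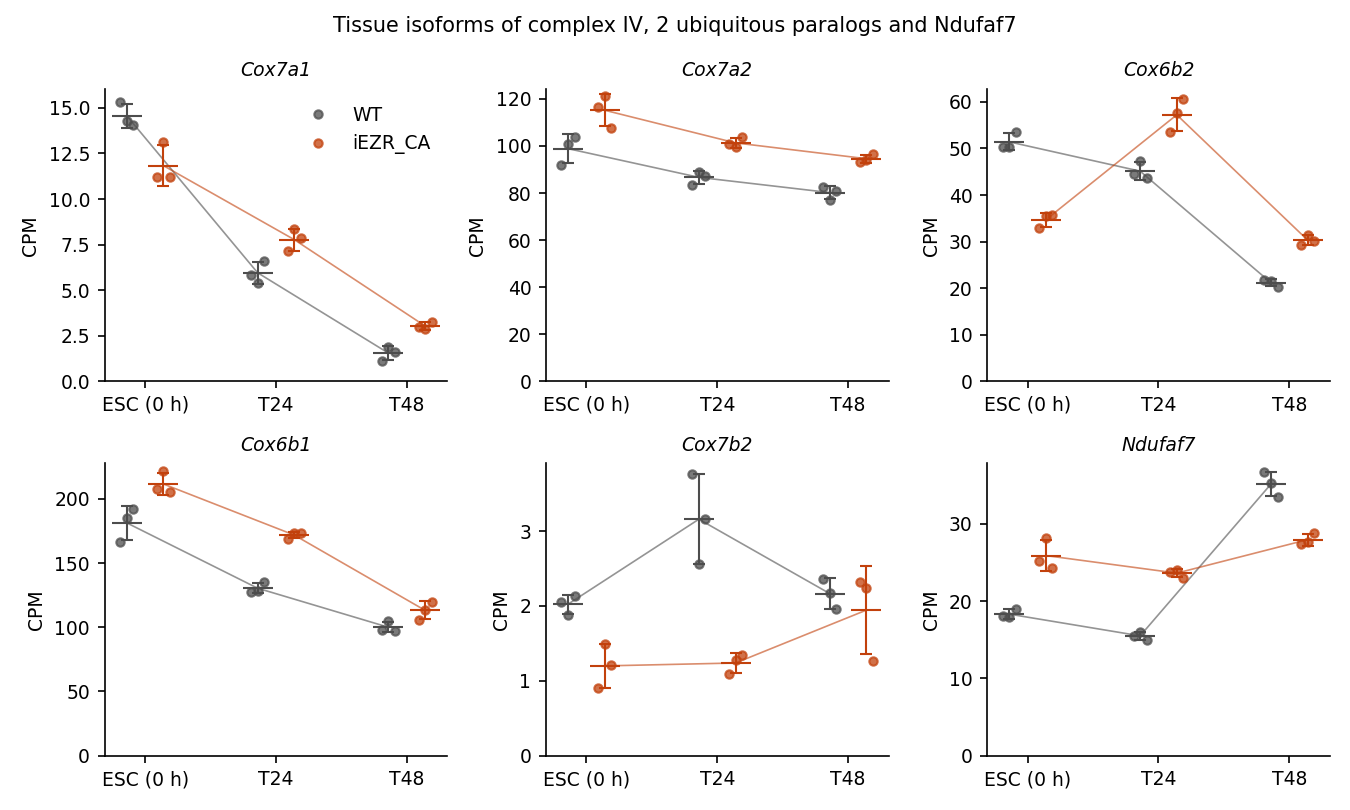
CPM (linear axes from 0) of Cox7a1, Cox7a2, Cox6b2, Cox6b1, Cox7b2 and the assembly factor Ndufaf7 in each library by line and time (points, libraries; bars, mean ± SD of 3). Cox7a1 falls at each time in both lines, from 14.6 to 1.55 CPM in WT, while Cox6b2 peaks at T24 in iEZR_CA at 57.2 CPM.

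Among the other subunits of complex IV, Cox4i1, the regulatory subunit that binds ATP, was at 286, 299 and 314 CPM in WT ESC and 388, 401 and 393 in iEZR_CA ESC and at 222, 205 and 212 and 299, 317 and 319.8 at T48, higher in iEZR_CA by 0.40 (SE 0.029, edgeR adjusted p = 6.6e-19) and 0.55 (SE 0.030, edgeR adjusted p = 4.0e-25). The lines did not overlap at any time, and Cox4i1 also lies on chromosome 8, whose median is given above. Cox5a was at 120.1, 127 and 129.8 CPM in WT ESC and 55.1, 51.7 and 50.6 at T48 and changed by -1.26 (SE 0.039, edgeR adjusted p = 4.1e-40) in WT and -1.05 (SE 0.037, edgeR adjusted p = 2.2e-36) in iEZR_CA, and is named after its values were seen. Cox6a1 fell by 0.89 in WT and 0.68 in iEZR_CA by T48 and lay 0.14, 0.34 and 0.36 higher in iEZR_CA. Ndufa4, first assigned to complex I and now counted with complex IV, was at 121, 127 and 132 CPM in WT ESC and 109.9, 108 and 113 at T48 (-0.20, SE 0.035, edgeR adjusted p = 1.0e-06), and lay 0.14, 0.23 and 0.09 higher in iEZR_CA, the last of which was lost on leaving out any of 4 libraries (0.06 to 0.08). Cox8a was at -0.21 between the lines in ESC and -0.37 at T48 in WT. Ndufa4l2, the hypoxia-linked relative of Ndufa4, fell short of the level limit (mean 0.733 CPM), but was at 0.216, 0.185 and 0.369 CPM in WT ESC and 2.96, 2.81 and 1.88 at T48, and at 0, 0.0403 and 0 and 1.36, 1.104 and 0.977 in iEZR_CA, so that both T48 groups lay above all ESC libraries. Cox4i2, Cox6a2, Cox8b and Cox8c, isoforms of lung, striated muscle and testis, reached at most 0.887 CPM in any library (Cox8c in a WT T48 library), and the largest Cox8b count was 1.

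Complex V, the ATP synthase, had 12 of 17 nuclear members lower and 3 higher at T48 in WT and 14 and 2 in iEZR_CA (medians -0.23 and -0.34; 0.04 and -0.08 on the spike-in scale), beside 37.4% and 35.0% of all genes lower, and on the spike-in scale 3 and 1 of the 17 were lower and 3 and 2 higher. Atp5b, the catalytic subunit, was at 2781, 2843 and 2862 CPM in WT ESC and 2289, 2229 and 2197 at T48 (-0.34, SE 0.020, edgeR adjusted p = 2.4e-24), and at 2891, 2917 and 2853 and 2272, 2335 and 2316 in iEZR_CA (-0.32). Its differences between the lines were 0.03, 0.03 and 0.04, none of them called, with an SE of 0.020 in ESC. Atp5a1, its partner in the catalytic head, was lower in iEZR_CA ESC, with a difference of -0.13 (SE 0.022, edgeR adjusted p = 4.9e-07), and at T48 (-0.18). Atp5e, the epsilon subunit, rose in both lines, from 51.7, 54.2 and 57.6 to 91.8, 94.7 and 93.9 CPM in WT (0.77, SE 0.051, edgeR adjusted p = 4.1e-16) and from 55.8, 66.6 and 60.8 to 75.5, 83.6 and 83.4 in iEZR_CA (0.40, SE 0.051, edgeR adjusted p = 1.6e-08), less in iEZR_CA by the interaction of -0.38 (SE 0.072, edgeR adjusted p = 4.3e-05). Atp5s, a coupling factor at low level, was at 5.09, 4.08 and 3.94 CPM in iEZR_CA T24 against 5.704, 5.78 and 6.46 in WT (-0.46, SE 0.13, edgeR adjusted p = 0.0017) and rose by T48 in iEZR_CA by 0.65. Atp5g2, which encodes the c-ring subunit of the proton channel, was at 5.396, 4.43 and 5.38 CPM in WT ESC and 6.41, 6.697 and 6.16 at T24 (0.36, SE 0.12, edgeR adjusted p = 0.0069), a call lost without the second WT ESC library (0.253).

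12 nuclear members were called higher in iEZR_CA at all 3 times: Ndufa3, Ndufb7, Ndufb8, Ndufaf2, Sdhc, Cox4i1, Cox5a, Cox6a1, Cox6b1, Cox7a2, Ndufa4 and Atp5mpl, a share near the 12.2% of all genes tested. Those called lower at all 3 times were 2, Ndufs7 and Ndufaf3, beside 11.1% of all genes, and leaving out single libraries ended the calls of Ndufaf3 in ESC and T24 and of Ndufs7 at T24 (Ndufaf3 to -0.11 in ESC and -0.15 at T24, Ndufs7 to -0.09), and that of Ndufa4 at T48 (to 0.06). These genes were listed after their values were seen. Nuclear levels are uncertain where a near-identical copy or an antisense gene overlaps the transcript. Of the 88, 18 had a copy among annotated transcripts of other genes. Of these 18, 5 were copied over at least 50% of the transcript (Atp5o, Ndufs3, Atp5h, Uqcrb and Atp5l). Copies without an annotated transcript were not searched for. An antisense gene over at least 10% was found for 10 of the 88, among them Ndufaf2 (65.6%), Cox5a (12.8%) and Ndufa2 (11.5%), whose values are given above.

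Other genes of the pathway were read from lists, and the shares of all genes called higher and lower to set beside each count are 26.4% and 28.1% between the lines in ESC, 30.8% and 30.1% at T24, 31.0% and 30.1% at T48, and 37.1% and 37.4% for WT T48 against ESC. Of 29 genes for the upkeep, transcription and processing of mitochondrial nucleic acids, 4 were higher and 16 lower in iEZR_CA in ESC, 5 and 17 at T24 and 3 and 14 at T48. Against ESC in WT, 14 of the 29 were higher and 10 lower at T48. Tfam, which packages and activates the mitochondrial genome, was at 88.7, 92.1 and 90.5 CPM in WT ESC and 117, 115 and 113 at T48 (0.35, SE 0.035, edgeR adjusted p = 4.1e-14), against 0.29 in iEZR_CA, and Lrpprc, which stabilises mitochondrial mRNAs, rose by 0.31 and 0.25. Polrmt, the mitochondrial RNA polymerase, was at 70.6, 69.9 and 70.4 CPM in WT ESC and 52.97, 50.8 and 49.5 at T24, and at 60.5, 58.04 and 57.7 and 59.4, 57.4 and 59.5 in iEZR_CA, with an interaction of 0.45 (SE 0.059, edgeR adjusted p = 2.0e-09). Of 77 mitochondrial ribosomal proteins 19 were higher and 29 lower in iEZR_CA at T24 and 15 and 31 at T48, and 31 higher and 24 lower at T48 in WT. Of 37 assembly factors outside the member symbols 10 were higher and 8 lower in iEZR_CA at T24 and 16 and 12 at T48 in WT, and of 8 other chain components 3 and 3, then 4 and 3. Of 8 mitochondrial chaperones and proteases 0 were higher and 5 lower in iEZR_CA in ESC, and 1 and 4 at T48. At T24 1 was higher and 6 were lower in iEZR_CA, among them Hspd1, the matrix chaperonin, at 499.8, 481 and 495 CPM against 648, 657 and 658 (-0.41, SE 0.025, edgeR adjusted p = 7.5e-24). Of 8 nuclear regulators tested, 1 was higher and 5 were lower in iEZR_CA ESC, 2 and 5 at T24 and 3 and 2 at T48. Esrra, a nuclear receptor of respiratory genes, was at 38.9, 38.1 and 36.5 CPM in WT ESC and 21.9, 21.9 and 18.1 in iEZR_CA ESC (-0.86, SE 0.060, edgeR adjusted p = 3.4e-20), and its coactivator Ppargc1b at 9.39, 8.605 and 9.64 and 3.804, 3.15 and 3.42 (-1.42, SE 0.13, edgeR adjusted p = 2.5e-15). Esrrb, the related receptor of naive ES cells, was at 1020.5, 1029.6 and 1008 CPM in WT ESC and 17, 17.5 and 19.7 at T48 (-5.81, SE 0.038, edgeR adjusted p = 5.6e-80), and at 923, 912 and 928 and 120.2, 124 and 129 in iEZR_CA (-2.89, SE 0.030, edgeR adjusted p = 4.7e-68). Nrf1 was at -0.22 between the lines in ESC and -0.06 at T48 in WT, the latter not called, and Ppargc1a had at most 3 counts in any library.

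Promoters of the nuclear members were read for 4 motifs on both strands. Of the 88, 75 matched a RefSeq gene start (GRCm38.p6; 73 by symbol, 2 by synonym), with 250 bases before and 50 after it, and the same windows of 27025 genes gave the background. Matches to the NRF1 consensus were found in 19 of 75 (25.3%) against 5.19% of all windows, to YY1 (AAGATGGC) in 11 (14.7% against 3.19%), to ETS (CCGGAAGT) in 5 (6.67% against 4.31%) and to ERR (TCAAGGTCA) in 2 (2.67% against 0.466%), and no motif contains another. The background windows were not matched for GC, CpG content or expression, and the part of these in the shares was not tested. Members with and without an NRF1 match had median changes of -0.23 and -0.19 at T48 in WT and of -0.32 and -0.25 in iEZR_CA, and those with and without YY1 of -0.19 and -0.19 in WT. Windows are printed 5′ to 3′ with matches in capitals, for a member that holds 2 NRF1 matches (Cox6a1, chr5:115348909-115349208, minus strand), for one with an NRF1 and an ERR match (Sdhd, chr9:50603800-50604099, minus strand) and for Cox7a1 (chr7:30183921-30184220, plus strand), which held none of the 4.
Cox6a1: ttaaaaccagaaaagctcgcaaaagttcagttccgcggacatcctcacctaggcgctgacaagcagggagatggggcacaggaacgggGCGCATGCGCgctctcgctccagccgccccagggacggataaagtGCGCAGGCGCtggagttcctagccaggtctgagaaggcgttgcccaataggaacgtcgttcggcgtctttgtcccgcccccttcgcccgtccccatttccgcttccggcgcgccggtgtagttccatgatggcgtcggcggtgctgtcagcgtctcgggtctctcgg
Sdhd: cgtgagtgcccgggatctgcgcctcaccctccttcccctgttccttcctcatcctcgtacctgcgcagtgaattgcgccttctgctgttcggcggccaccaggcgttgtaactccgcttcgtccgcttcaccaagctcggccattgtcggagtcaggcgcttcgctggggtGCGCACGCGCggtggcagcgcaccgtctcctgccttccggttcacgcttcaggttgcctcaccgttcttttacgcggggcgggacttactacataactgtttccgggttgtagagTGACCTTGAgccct
Cox7a1: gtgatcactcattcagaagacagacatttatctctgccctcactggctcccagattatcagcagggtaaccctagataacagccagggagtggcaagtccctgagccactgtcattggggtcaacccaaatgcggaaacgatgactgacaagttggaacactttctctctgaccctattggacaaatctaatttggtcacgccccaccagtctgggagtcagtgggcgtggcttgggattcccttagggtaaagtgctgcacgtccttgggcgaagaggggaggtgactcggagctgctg
The Cox6a1 window had 32 CpG and 63.0% GC, that of Sdhd 29 and 62.0%, and that of Cox7a1 7 and 53.0%; a match is a run of letters and no evidence of binding, and no match says only that these letters are absent from the window.

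The gene nearest the level limit from below was mt-Atp8, the small mitochondrial subunit of complex V, at a mean of 0.964 CPM and 7 to 41 counts a library, 21.1% of which overlaps mt-Atp6, so that the 13th mitochondrial protein gene was not counted among the 12. It was at 0.863, 0.776 and 1.03 CPM in WT ESC and 0.444, 0.634 and 0.782 at T48. mt-Atp8 lies between mt-Co2 and mt-Atp6, whose copies lie in the chromosome 1 stretch. Only annotated transcripts were searched, so whether that stretch also copies mt-Atp8 was not tested.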

How the data were processed

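Raw read counts per gene from 18 libraries of polyadenylated RNA (paired-end) were used as deposited by the authors, who per the labels and the study's methods trimmed with Trim Galore 0.6.5, aligned to GRCm38/mm10 with GSNAP and counted with HTSeq on Ensembl 81; the strand setting is not given in the sources used here. The count rows of 92 ERCC spike-ins and 5 rows of reads outside genes were kept out of library sizes and tests. Gene symbols and lengths came from GENCODE M21 (53706 of 53801 IDs). edgeR 4.0.16 (TMM, filterByExpr, robust quasi-likelihood fit of 6 group terms, 12 residual degrees of freedom) gave fold changes and Benjamini-Hochberg adjusted p-values over 18469 genes. All 100 members passed the filter. The fit was also run on counts simulated from its own model and dispersions, which cannot show whether that model holds for these libraries. Near-identical copies were searched for among GENCODE M21 transcripts with BLAST 2.17.0 at 97% identity over at least 100 bases. The chromosome 1 alternative was chosen after seeing the data. Named genes were every mitochondrial gene and, of nuclear members, the 3 largest called rises and falls in each comparison of the lines and each interaction, the 2 largest with time, the isoform families, Sdha to Sdhd, Ndufs1, Ndufv1, Uqcrc1, Uqcrfs1, Atp5a1, Atp5b and the members next to the level limit. The member rule reads symbols and mean levels alone, but this gene set, the rule and the lists were chosen with earlier results of these data known. DESeq2 1.42.0, other scalings and filters, and leaving out each library were alternatives.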

Additional observations from a re-analysis of the deposited data

Results flagged for a closer look

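The change with time differed between the lines by the interaction test in edgeR for 4 of 12 mitochondrially encoded and 32 of 88 nuclear members at T24 and for 6 and 34 at T48, where of all genes tested 21.5% were positive and 16.9% negative at T24 and 25.7% and 20.0% at T48. On the spike-in scale 0 and 2 were called, all positive, at T24 and 1 and 4 at T48. At T24 the mitochondrial values were 0.40 for mt-Nd6, 0.29 for mt-Co2, 0.21 for mt-Co3 and 0.17 for mt-Atp6, and the largest called nuclear ones, of the genes named, 0.91 for Cox6b2, 0.70 for Cox7a1, 0.44 for Sdhb and -0.24 for Uqcrq, on the log2 scale and positive where iEZR_CA fell less or rose more. At T48 they were 0.62 for mt-Co1, 0.43 for mt-Co2, 0.42 for mt-Nd6, 0.35 for mt-Nd5, 0.34 for mt-Co3 and -0.40 for mt-Nd3, and 1.32 for Cox7a1, 1.09 for Cox6b2, 0.38 for Ndufaf1, -0.45 for Ndufa2, -0.54 for Ndufaf6 and -0.84 for Ndufaf7.

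Outside the member mRNAs, mitochondrial rRNA stood apart between the lines: mt-Rnr1 was higher in iEZR_CA by 0.91 in ESC, 0.98 at T24 and 0.70 at T48, and mt-Rnr2 by 1.0, 1.27 and 1.45. The share of reads set aside for low alignment quality, which no comparison used, had a median of 0.955% in iEZR_CA libraries and 0.569% in WT, with no overlap.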

How the results depend on the processing

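Scaling to the ERCC spike-ins, whose factors ran from 0.759 to 1.16 of TMM within iEZR_CA T48, lowered the counts of called nuclear members between the lines from 49 to 8 in ESC, 55 to 30 at T24 and 47 to 13 at T48, with time from 72 to 20 (WT T24), 58 to 7 (iEZR_CA T24), 64 to 38 (WT T48) and 72 to 21 (iEZR_CA T48), and in the interactions from 32 to 2 (T24) and 34 to 4 (T48). Called mitochondrial members went from 10 to 4 (WT T24), 5 to 0 (iEZR_CA T24, and to 2 with no low-count filter and 9 with only the groups compared), and in the interactions from 4 to 0 (T24, and to 7 with only the groups compared) and 6 to 1 (T48). Without mt-Co1 the log2 ratio of summed mitochondrial over nuclear members moved between the lines from 0.0082 to 0.22 in ESC and from 0.18 to 0.37 at T24, and in the interaction at T48 from 0.42 to 0.26. Leaving out 1 library at a time, the mitochondrial minus nuclear median ran from -0.93 to -0.75 for WT T48 and from 0.35 to 0.54 between the lines at T48, and called mitochondrial members from 3 to 5 for iEZR_CA T24. Of 423 fold changes of 47 named genes, 29 called falls turned positive on the spike-in scale: Ndufv3 (0.0059), Cox4i1 (0.026), Uqcrq (0.034), Ndufs1 (0.041), Uqcrfs1 (0.014) at T24 and Ndufb7 (0.16), Ndufa4 (0.065), Cox7a2l (0.078), Cox7b (0.033), Sdha (0.031), Ndufs1 (0.14), Atp5a1 (0.080) at T48 in WT, and mt-Co3 (0.028), mt-Atp6 (0.019), Ndufb7 (0.0022), Ndufaf7 (0.021), Ndufs7 (0.0058), Ndufa4 (0.054) at T24 and Cox6b2 (0.066), Ndufs7 (0.13), Ndufaf1 (0.068), Ndufa2 (0.15), Ndufa4 (0.025), Cox7b (0.021), Cox8a (0.0020), Sdha (0.15), Sdhd (0.17), Ndufv1 (0.087), Atp5a1 (0.028) at T48 in iEZR_CA. DESeq2's test ended 12 calls among the 423, DESeq2 size factors 3 and no low-count filter 22. The spike-in scale ended 135 that kept their sign, and the 29 that changed sign are not counted in these 135. Leaving out 1 library at a time, a named call was lost in 110 instances and no call changed sign. The causes were not tested. The median differences without the 5 genes copied on chromosome 1, an alternative chosen after seeing the data, kept their direction. No paired analysis was possible because the labels carry no replicate number that groups share.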
